A study of Mus musculus with 18 samples.

Results

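The mitochondrial ribosomal protein genes were followed through mouse oocytes grown *in vivo* or *in vitro*. They were taken from the gene symbols as every symbol that starts with Mrpl or Mrps and a number, and the 5 pseudogene symbols were dropped, which left 78 of the 28252 genes in the TPM table (transcript levels corrected for gene length and scaled to a fixed total) and of the 53715 genes in the count table. Of the 78 members, 51 encode proteins of the large subunit and 26 encode proteins of the small subunit. *Mrps36* is named after the ribosome, but its product is a subunit of the 2-oxoglutarate dehydrogenase complex, and it was kept apart from both subunits.

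RNA sequencing was carried out on 18 libraries in 6 groups of 3, all from C57Bl/6j x CBA/J F1 mice. From primordial and from primary follicles, oocytes were isolated by laser capture microdissection (LCM) from sections of ovaries that had been fixed in paraformaldehyde and embedded in paraffin. The ovaries came either from 14-day-old mice without culture (*in vivo*) or from 7-day-old mice followed by culture for 7 days in a medium with 10% fetal bovine serum, recombinant FSH and insulin-transferrin-selenium (*in vitro*). Metaphase II (MII) oocytes came in tubes of 10 from superovulated adult mice (*in vivo*), or from 7-day-old ovaries cultured for 7 days whose preantral follicles then grew in alginate for 12 days and were matured with hCG (*in vitro*). The RNA of the fixed LCM oocytes was amplified and enriched with a capture kit, whereas MII libraries were made by the Smart-seq II method. Captured oocytes were pooled before sequencing and no label ties a library to 1 animal, so that p-values measure the spread between these libraries, which may be technical. The *in vivo* and *in vitro* groups differed in the age of the donor as well as in culture, and these cannot be told apart.

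The mitochondrial ribosome translates the few messenger RNAs that are encoded by the mitochondrial genome, all of them for membrane subunits of the respiratory chain and the ATP synthase. Its RNAs are mitochondrial transcripts, whereas all of its proteins are encoded in the nucleus, made in the cytosol and imported. Some of these proteins have a counterpart in the bacterial ribosome and others were added in mitochondria. Oocytes carry a large stock of mitochondria that is passed on to the embryo.

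The members lie on 17 chromosomes, and many sit head to head with another gene. In the RefSeq promoter windows of GRCm38.p6, which run from 250 bases before to 50 bases after each start, 69 of the 78 members were found by symbol. In 21 of the 69 members (30.4%) a start of another gene lay upstream on the other strand within 250 bases, against 2363 of all 27025 genes with a window (8.74%). Motifs were searched on both strands. CCGGAAG, the core bound by ETS family factors such as GABP, was present in the windows of 26 members (37.7%) and of 9.93% of all genes. CGCANGCGC, most of the palindrome bound by NRF1, was present in 18 members (26.1%) and 7.12% of all genes. AAGATGGCG, bound by YY1, was present in 8 members (11.6%) and 1.64% of all genes. At least 1 of these motifs stood in the windows of 43 members (62.3%) and of 16.6% of all genes. These matches are a description of letters and not of bound sites.

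The stretches before the starts of 5 members whose read counts carry the results below are given 5′ to 3′ on the strand of the gene, on GRCm38.p6, with motif matches in capitals. Bases in annotated exons were left out. *Mrpl43* is shown because it was the only member called by the main test, *Mrps25* because it led the small subunit reads in the *in vitro* primary libraries, the stretch before *Mrps11* because it is shared with *Mrpl46* on the other strand, *Mrpl22* because it had one of the smallest p in mature oocytes, and *Mrpl9* because it overlaps a gene on the opposite strand that was read in MII libraries.
Mrpl43, chr19:45006443-45006557, minus strand: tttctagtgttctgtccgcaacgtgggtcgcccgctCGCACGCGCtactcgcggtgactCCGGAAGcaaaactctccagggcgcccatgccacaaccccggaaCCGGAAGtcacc
Mrps25, chr6:92184034-92184183, minus strand: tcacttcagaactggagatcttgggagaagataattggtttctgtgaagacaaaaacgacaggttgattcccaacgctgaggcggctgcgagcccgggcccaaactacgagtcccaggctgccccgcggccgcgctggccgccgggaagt
Mrps11, chr7:78783090-78783118, plus strand: ccatgaggcaacgcgggccggcgaggggc
Mrpl22, chr11:58171511-58171660, plus strand: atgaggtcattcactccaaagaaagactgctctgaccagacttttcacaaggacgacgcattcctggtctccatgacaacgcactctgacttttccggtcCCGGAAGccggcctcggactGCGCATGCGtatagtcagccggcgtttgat
Mrpl9, chr3:94443168-94443317, plus strand: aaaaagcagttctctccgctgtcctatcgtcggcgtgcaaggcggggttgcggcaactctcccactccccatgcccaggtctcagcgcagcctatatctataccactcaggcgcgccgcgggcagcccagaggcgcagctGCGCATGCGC
The 115 bases before *Mrpl43* reach to the start of *Twnk*, the replicative helicase of mitochondrial DNA, and hold 2 ETS cores and 1 NRF1 match. The 150 bases before *Mrpl22* hold 1 match of each of these motifs and the 150 before *Mrpl9* hold 2 overlapping NRF1 matches. Neither the 150 bases before *Mrps25* nor the 29 bases before *Mrps11* hold any of the 3 motifs. The window of *Mrps11* does hold a YY1 match, which lies outside the bases printed.

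The LCM libraries held 15149564 to 29205503 counted reads and the MII libraries 7334817 to 9978830. A member was called detected in a library when it had over 3 reads, which equals 0.103 to 0.198 CPM (counts scaled to a fixed library total) in LCM libraries and 0.301 to 0.409 CPM in MII libraries. Unless another scaling is named, all other CPM values are on the TMM scale, which multiplies each library total by a factor fitted within the LCM or the MII libraries. Of 13 oocyte markers, 11 to 13 were detected in every library, and their sum was 231 to 1517 CPM before and 8997 to 16543 CPM at the MII stage. Markers of the cells around the oocyte were also present in the LCM libraries: 10 granulosa markers summed to 16.2 to 1191 CPM, 10 theca and stroma markers to 703 to 21927 CPM, 5 endothelial markers to 0 to 905 CPM and 6 immune and blood markers to 0 to 2473 CPM. *Fshr* had no read in any LCM library, and *Ptprc* and *Adgre1* had none in any library. In MII oocytes the theca and stroma markers summed to at most 13.6 CPM. The part of these cells in the member counts was not tested. In pooled samples of this kind, fewer cells of a type and less RNA per cell cannot be told apart. Stage and library preparation differ together between LCM and MII libraries and cannot be told apart, so that the values of these are set side by side without a test.

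The members were detected unevenly in the small follicles and evenly in mature oocytes. Over 3 reads were counted for 34, 44 and 31 members in the *in vivo* primordial libraries, for 20, 30 and 28 in the *in vitro* primordial libraries, for 17, 49 and 34 in the *in vivo* primary libraries, and for 64, 36 and 67 in the *in vitro* primary libraries. In MII oocytes, 66, 69 and 70 members were detected *in vivo* and 66, 74 and 72 *in vitro*. Within the LCM libraries, the libraries that detected many members also detected many genes of any kind. Per 1000 detected genes, there were 3.44 to 5.77 members in LCM libraries and 4.78 to 5.21 in MII libraries.

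**Figure D1:**
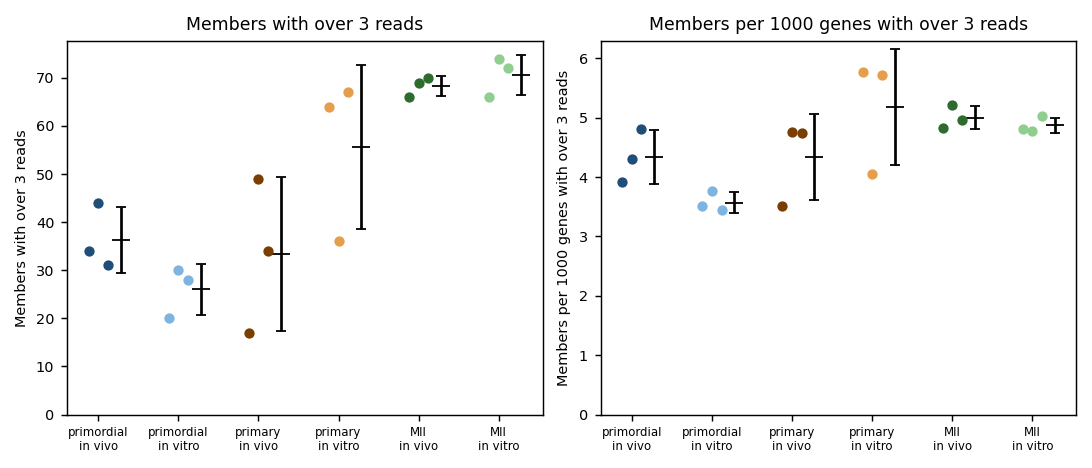
Members detected with over 3 reads in each library (left, number of the 78 members) and members per 1000 detected genes (right), with the mean and SD of 3 libraries beside the points. MII libraries hold 66 to 74 detected members each, whereas LCM libraries spread from 17 to 67.

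Detection in all libraries of a group was rare before maturity. In all 3 libraries, 10 members were detected in *in vivo* primordial, 2 in *in vitro* primordial, 4 in *in vivo* primary and 34 in *in vitro* primary oocytes, against 59 in *in vivo* and 65 in *in vitro* MII oocytes. No member was detected in all 18 libraries, and none was missing from every LCM library. In 31 members, 1 of the 12 LCM libraries held 50% or more of the summed level. Of the 36 members that reached 100 reads in an *in vitro* primary library, 12 had 3 or fewer reads in another library of that group. The same held for 24 of 27 members in *in vivo* primary, 17 of 18 in *in vitro* primordial and 14 of 21 in *in vivo* primordial oocytes, but for 0 of 37 and 0 of 36 members in *in vivo* and *in vitro* MII oocytes. As a description over the 78 members, the Spearman correlation of read counts between libraries of a group was -0.13 to 0.45 in LCM groups and 0.86 to 0.95 in MII groups. The members thus had a shared order of levels in MII libraries and hardly one in LCM libraries.

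**Figure D2:**
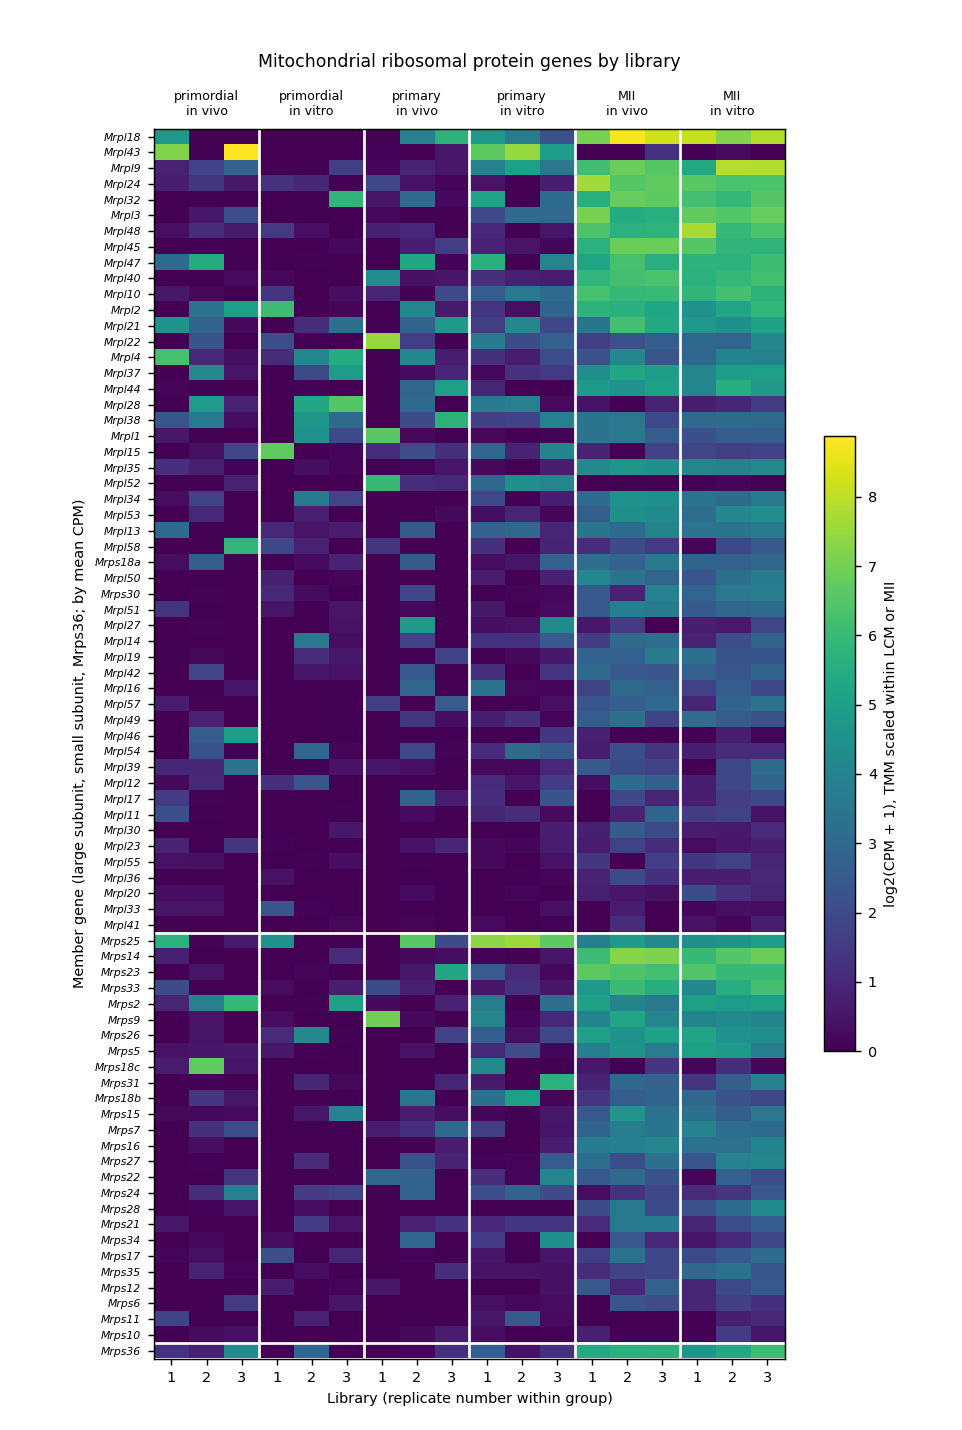
Level of each of the 78 members (rows, large subunit, small subunit, then Mrps36, by mean CPM) in each of the 18 libraries (columns), as log2(CPM + 1) after TMM scaling within the LCM or the MII libraries. The 6 MII columns look alike, whereas bright cells in the 12 LCM columns are often single libraries, such as Mrps18c in replicate 2 of in vivo primordial oocytes (2767 reads).

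In oocytes of primordial follicles, the question was whether ovary culture changed the members. The members summed to 369, 276 and 717 CPM *in vivo* and to 219, 175 and 303 CPM *in vitro* (454 ± 232 and 232 ± 64.7, SD, n = 3). The lowest *in vivo* library lay below the highest *in vitro* library, although the mean *in vitro* was 0.512 times that *in vivo*. Without *Mrpl43* the ratio was 0.935. On the TPM scale, which corrects for length, the members summed to 902 ± 371 *in vivo* (683 to 1331) and 355 ± 110 *in vitro* (247 to 468, SD, n = 3), with no overlap. Without *Mrpl43* the *in vivo* libraries summed to 283, 683 and 325 TPM and overlapped those *in vitro*. With library size alone in place of TMM, the CPM sums were lower *in vitro* with no overlap (ratio 0.532). In edgeR's quasi-likelihood test, a gene was called when it changed at least 2-fold and its p, adjusted over all genes by Benjamini-Hochberg, was under 0.05. No member was called, against 5 of 15317 genes (0.0326%). The test had 77 members, because *Mrpl36* had under 10 reads in all 12 LCM libraries together and was left out. An unadjusted p under 0.05 was found for 8 members (10.4%) and for 11.7% of all genes. DESeq2 on the same counts called 5 members, of which *Mrpl18*, *Mrpl43*, *Mrpl47* and *Mrps18b* were lower and *Mrpl32* was higher *in vitro*, against 5.3% of all genes.

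The members that led this comparison were read in a few libraries only. *Mrpl43* (ENSMUSG00000025208, chr19:45004829-45006442, minus strand, GRCm38), a large subunit protein without a bacterial counterpart, had 3418, 1 and 8996 reads *in vivo* and 0 in each *in vitro* library. On the TMM scale it was at least 1305-fold higher *in vivo* (205 ± 240 CPM, SD, n = 3, against a floor of 3 reads in each *in vitro* library), but replicate 2 *in vivo* had 1 read. By the quasi-likelihood test of edgeR (Benjamini-Hochberg) its adjusted p was 0.359. *Mrps18c*, the small subunit protein closest to bacterial S18, had 14, 2767 and 8 reads *in vivo* and 0 in each *in vitro* library. *Mrpl46* had 0, 135 and 565 reads *in vivo* and 0 in each *in vitro* library. *Mrpl18*, a protein of the central protuberance of the large subunit, had 626, 0 and 0 reads *in vivo* and 0 in each *in vitro* library, so that its call by DESeq2 rested on replicate 1 *in vivo*. *Mrpl32* went the other way through 1 library, with 0, 1 and 0 reads *in vivo* and 0, 1 and 1143 *in vitro*.

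Over the tested members, the median log2 change *in vitro* was -0.87, against 0.00 over all genes tested, with 29 members above and 48 below 0. Without any 1 of the *in vivo* libraries this median lay between -0.18 and 0.00. In 3 members, *Mrpl43*, *Mrps18c* and *Mrpl39*, every *in vitro* library lay below every *in vivo* library, against 4.55% of all genes. In 0 members every *in vitro* library lay above, against 2.04% of all genes. The sums of the marker lists all overlapped between these groups. Their ratios *in vitro* to *in vivo* were 1.26 for oocyte, 2.38 for granulosa and 1.25 for theca and stroma markers. They were 11.4 for endothelial and 0.0233 for immune and blood markers. The part of these markers in the comparison was not tested.

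In oocytes of primary follicles the order of the culture groups was the opposite for *Mrpl43*. The members summed to 504, 324 and 243 CPM *in vivo* and to 556, 564 and 414 CPM *in vitro* (357 ± 134 and 511 ± 84.4, SD, n = 3), and the groups overlapped. The ratio of 1.43 depended on the scaling: it was 1.97 with library size alone, under which the groups did not overlap, and 0.930 with DESeq2's size factors. No member and no gene was called by edgeR's quasi-likelihood test (0% of 15317 genes), and 6 members (7.79%) had an unadjusted p under 0.05, against 9.66% of all genes. DESeq2 called *Mrpl43*, against 1.59% of all genes. The median log2 change of the members was 0.75, and that of all genes was 0.44. With DESeq2's size factors these medians were 0.45 and 0.17, and with library size alone 1.11 and 0.72. Over these 3 scalings the members lay above all genes by 0.28 to 0.38. By limma the medians were 0.42 and 0.38 on log2(TPM + 1), and 1.34 and 1.04 on log2(TPM + 0.1). Without replicate 3 *in vitro* the median was -0.06 over the members and 0.005 over all genes, so that the members did not lie above.

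In 8 members (10.4%) every *in vitro* library lay above every *in vivo* library, near the share of 8.74% of all genes. In 0 members the order was the reverse, against 1.25% of all genes. The 8 were *Mrpl3*, *Mrpl9*, *Mrpl10*, *Mrpl12*, *Mrpl43*, *Mrps6*, *Mrps11* and *Mrps25*. Of these, *Mrps6* had 0 reads *in vivo* and was detected in only 2 of the 3 *in vitro* libraries. *Mrpl43* had 1, 0 and 9 reads *in vivo* and 3130, 4110 and 945 *in vitro*. *Mrpl3*, the counterpart of bacterial L3, had 3, 0 and 0 reads *in vivo* and 88, 178 and 239 *in vitro*. *Mrps11*, a protein of the platform of the small subunit, had 0 reads in each *in vivo* library and 15, 105 and 6 *in vitro*, and was at least 11.3-fold higher *in vitro* on the TMM scale. *Mrpl12*, which is part of the stalk of the large subunit and also binds the mitochondrial RNA polymerase, had 0 reads in each *in vivo* library and 35, 10 and 62 *in vitro*. Each of these 4 members was detected in all 3 *in vitro* libraries, and the counts of *Mrps11* and *Mrpl12* stayed at 105 or below. The sum of the immune and blood markers was lower *in vitro*, at 1096 ± 1203 CPM *in vivo* and 10.6 ± 18.3 CPM *in vitro* (SD, n = 3). It rested on few genes, because 1, 3 and 1 of these 6 markers were detected in the *in vivo* libraries and 1, 0 and 0 *in vitro*. The granulosa markers summed to 411 ± 201 CPM *in vivo* and 765 ± 377 CPM *in vitro* (SD, n = 3) with overlap, and the median log2 change of the 8 tested was 1.89, with 6 above 0 and 0 called. The oocyte markers summed to 873 ± 404 CPM *in vivo* and 494 ± 223 CPM *in vitro* (SD, n = 3) with overlap. The theca and stroma markers summed to 7949 ± 12108 and 2140 ± 1465 CPM, and the endothelial markers to 29.9 ± 44.6 and 13.9 ± 23.6 CPM, also with overlap. The part of these markers in the comparison was not tested.

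*Mrps25* (ENSMUSG00000014551, chr6:92169525-92184033, minus strand, GRCm38), a small subunit protein added in mitochondria, was singled out after its values were seen. It had 0, 2420 and 58 reads *in vivo* and 4982, 4404 and 3250 *in vitro*, or 33.4 ± 55.2 and 151 ± 45.6 CPM (SD, n = 3), with no overlap. The log2 change was 2.17 with a standard error of 2.87, and the adjusted p was 0.940 by the quasi-likelihood test of edgeR (Benjamini-Hochberg). In primordial oocytes it had 1158, 2 and 11 reads *in vivo* and 296, 0 and 1 *in vitro*, with overlap. Exons of *Nr2c2*, a nuclear receptor gene, overlap those of *Mrps25* from the opposite strand. In the primary libraries *Nr2c2* was read 153, 2269 and 56 times *in vivo* and 2643, 906 and 1349 times *in vitro*.

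**Figure D3:**
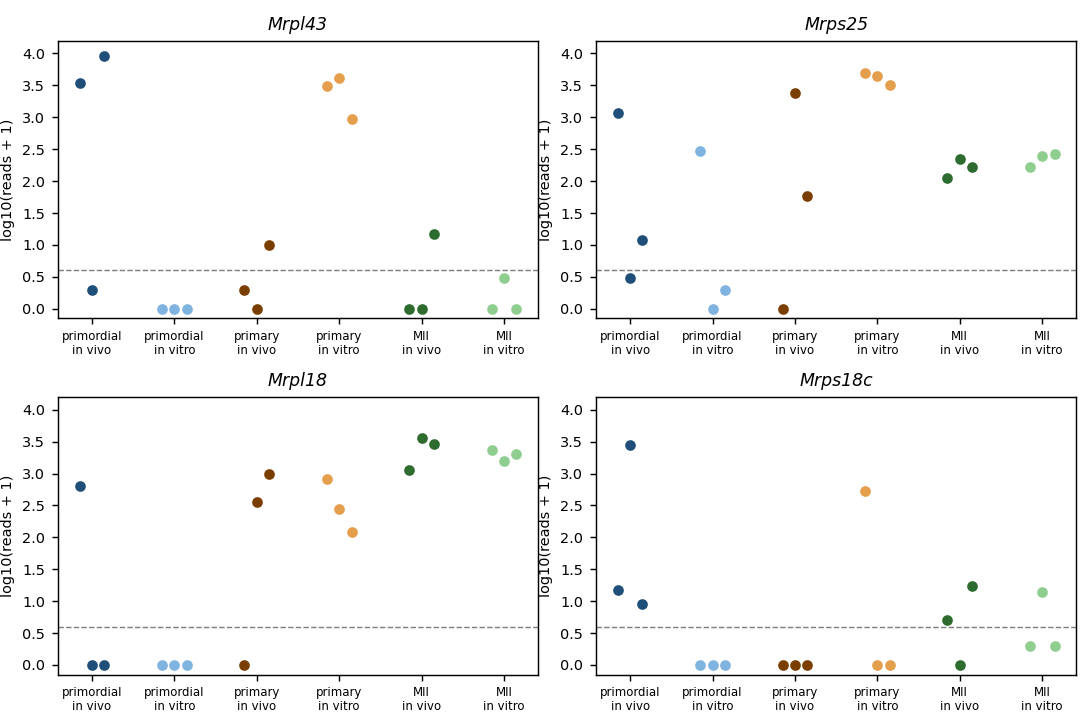
Reads of Mrpl43, Mrps25, Mrpl18 and Mrps18c in each of the 18 libraries, as log10(reads + 1) on the vertical axis, by group. The dashed line marks 3 reads, the floor of detection. Mrpl43 lies above 900 reads in all 3 in vitro primary libraries and at 0 in all 3 in vitro primordial libraries.

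The difference between the culture changes of the stages was then tested as the interaction of growth and stage. Of the 77 members tested, 1 was called by the quasi-likelihood test of edgeR (Benjamini-Hochberg), against 16 of 15317 genes (0.104%), and 9 members (11.7%) had an unadjusted p under 0.05, against 11.5% of all genes. This member was *Mrpl43*, with a fitted log2 difference of 24.32, a standard error of 5.77 and an adjusted p of 0.0380. The fitted size depends on a small number added to the counts, because 1 of the 4 groups was at 0 reads, and it is no measure of fold. Over the alternatives the adjusted p ran from 3.33e-08 by DESeq2 to 0.660 by limma. When 1 library was left out at a time it ran from 0.0414 to 0.200, and the call was kept only without replicate 1 of *in vivo* primary oocytes. DESeq2 called 4 members (*Mrpl3*, *Mrpl18*, *Mrpl43* and *Mrps18b*), against 3.64% of all genes. *Mrps18c* and *Mrpl46* followed *Mrpl43* in the order of p, with adjusted p of 0.157 and 0.198 by the quasi-likelihood test of edgeR (Benjamini-Hochberg).

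*Mrpl43* and *Twnk*, whose starts lie 116 bases apart, had different patterns. *Twnk* had 1, 18 and 0 reads in *in vivo* primordial, 0, 14 and 1 in *in vitro* primordial, 0, 1 and 3 in *in vivo* primary, and 46, 4 and 33 in *in vitro* primary libraries. *Twnk* was thus near the floor in the 2 primordial libraries with 3418 and 8996 *Mrpl43* reads. Exons of the pair overlap on opposite strands, and whether the counting used the strand is not given in the sources used here, so that reads in the overlap cannot be told apart. The same limit touches 28 members that overlap an exon of a gene on the opposite strand. In 8 members an exon of a gene on the same strand overlaps, which counting by strand would not resolve. *Mrps18c* overlaps *Gm43511* in this way. In the *in vivo* primordial libraries *Gm43511* had 14, 2731 and 8 reads and *Mrps18c* 14, 2767 and 8. The reads given for *Mrps18c* in any paragraph can thus not be assigned to it alone. Other head-to-head partners were also read where the member was not. *Tcp1*, a chaperonin subunit gene, had 2293 to 18318 reads in every LCM library, in 6 of which *Mrpl18* had none. The pair of members *Mrps11* and *Mrpl46* was detected together in 1 of the 12 LCM libraries, *Mrps11* alone in 4 and *Mrpl46* alone in 2.

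Stage was compared within each growth condition. *In vivo*, edgeR's quasi-likelihood test called 0 members between primary and primordial oocytes, against 8 of 15317 genes (0.0522%), and 7 members (9.09%) had an unadjusted p under 0.05, against 11.2% of all genes. DESeq2 called *Mrpl43*, which was lower in primary oocytes, against 3.66% of all genes. The median log2 change of the members was 0.13 and that of all genes 0.00, and the former was 0.59 with DESeq2's size factors, 0.00 with library size alone and -1.68 without replicate 2 of the primary libraries. In 3 members (*Mrpl52*, *Mrpl32* and *Mrpl40*) every primary library lay above every primordial library, against 2.36% of all genes, and in 3 members (*Mrps18c*, *Mrpl39* and *Mrps2*) every primary library lay below, against 4.02%. These stage comparisons use the same groups as the culture comparisons, and their values for *Mrpl43* rest on the reads given above.

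*In vitro*, the members were higher in primary than in primordial oocytes more often than they were lower. The primary libraries also detected more genes of any kind (11094, 8880 and 11710) than the primordial libraries (5703, 7966 and 8147). The part of this difference in the result was not tested. The median log2 change was 1.81 over the members and 0.44 over all genes tested, with 52 members above and 25 below 0. The median of the members was 0.83 without replicate 3 of the primary and 2.88 without replicate 3 of the primordial libraries. With limma on log2(TPM + 1) the medians were 0.66 over the members and 0.41 over all genes. In 17 members (22.1%) every primary library lay above every primordial library, against 9.87% of all genes. In 0 members every primary library lay below, against 1.34% of all genes. No member and no gene was called by the quasi-likelihood test of edgeR (Benjamini-Hochberg), or 0%, and 8 members (10.4%) had an unadjusted p under 0.05, against 10.9% of all genes. DESeq2 called 6 members, all higher in primary oocytes (*Mrpl3*, *Mrpl18*, *Mrpl43*, *Mrpl47*, *Mrpl52* and *Mrps18b*), against 2.96% of all genes.

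The leading members of this comparison had no read in primordial oocytes *in vitro*. *Mrpl18* had 827, 282 and 121 reads in the primary libraries, and was at least 90.8-fold higher there on the TMM scale. *Mrpl52*, a large subunit protein added in mitochondria, had 216, 480 and 493 reads and was at least 91.2-fold higher. *Mrpl43* was at least 654-fold higher. All 3 were at 0 reads in each *in vitro* primordial library. Granulosa markers had a median log2 change of 2.25 in the same comparison over the 8 of 10 that were tested. The median was -0.37 for oocyte markers, with 11 of 13 below 0. It was 0.18 for theca and stroma, -4.53 for endothelial and -0.92 for immune and blood markers. In each of these lists 0 were called, and their part in the result was not tested. Among related genes the median ran from 0.04 for cytosolic ribosomal proteins to 2.37 for aminoacyl-tRNA synthesis and 2.47 for mitoribosome assembly and rRNA modification.

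Single genes made up much of the subunit sums. The small subunit members summed to 58.5, 124 and 82.4 CPM in *in vivo* and 27.7, 24.7 and 52.9 CPM in *in vitro* primordial libraries, with no overlap and a ratio of 0.397. In primary oocytes they summed to 135, 134 and 58.6 CPM *in vivo* and 240, 242 and 215 CPM *in vitro*, with no overlap and a ratio of 2.13. With DESeq2's size factors the primary ratio was 1.44 and the groups overlapped. *Mrps25* made up 67.5%, 78.6% and 46.9% of the small subunit sum in the *in vitro* primary libraries, and without it the primary ratio was 1.07. Without *Mrps18c* the primordial ratio was 0.652, and in both cases the groups overlapped. The large subunit members summed to 247 ± 106 CPM *in vivo* and 277 ± 68.8 CPM *in vitro* in primary oocytes, and to 358 ± 236 and 195 ± 53.0 CPM in primordial oocytes (SD, n = 3), with overlap at both stages.

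The members were also split by origin. In this split *Mrps18b* was counted with the members added in mitochondria, although it has a relative among bacterial ribosomal proteins. The 31 members added in mitochondria summed to 130 ± 31.1 CPM *in vivo* and 341 ± 86.3 CPM *in vitro* in primary oocytes (SD, n = 3), with no overlap. The ratio was 2.62, and 1.96 with DESeq2's size factors. It was 1.83 without *Mrpl43* alone and 1.97 without *Mrps25* alone, each with no overlap. Without both genes these sums were 96.5 ± 40.0 and 87.3 ± 53.5 CPM, and they overlapped. In primordial oocytes the same 31 members summed to 277 ± 265 CPM *in vivo* and 42.0 ± 13.9 CPM *in vitro* (SD, n = 3), with overlap. The 46 members with a bacterial counterpart summed to 226 ± 162 and 168 ± 65.8 CPM in primary oocytes, with overlap.

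**Figure D4:**
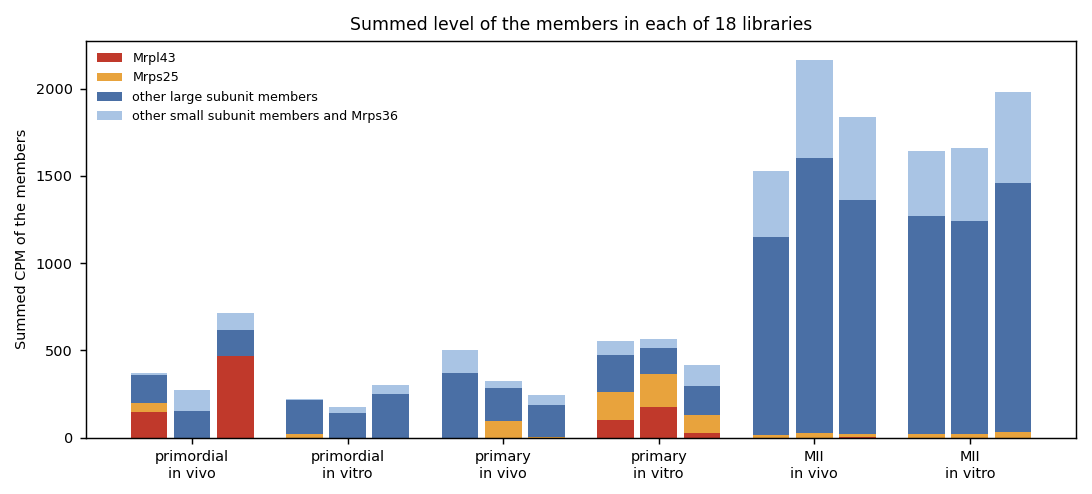
Summed CPM of the 78 members in each library (bars, TMM scaled within the LCM or the MII libraries), divided into Mrpl43, Mrps25, other large subunit members, and other small subunit members with Mrps36. Mrpl43 and Mrps25 fill visible parts of the bars in in vitro primary oocytes and in replicates 1 and 3 of in vivo primordial oocytes, Mrps25 also in replicate 2 of in vivo primary oocytes (30.0% of the member reads), and both almost none in MII oocytes.

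In MII oocytes no member passed the test between the growth conditions. The members summed to 1528, 2165 and 1835 CPM *in vivo* and to 1641, 1660 and 1979 CPM *in vitro* (1843 ± 319 and 1760 ± 190, SD, n = 3), a ratio of 0.955 with overlap, which was 1.05 without replicate 2 *in vivo*. They took 0.129% to 0.246% of the reads, against 0.0162% to 0.0714% in the LCM libraries. By the quasi-likelihood test of edgeR (Benjamini-Hochberg) 0 of the 77 members tested were called, against 60 of 17144 genes (0.35%), and 0 members had an unadjusted p under 0.05, against 10.2% of all genes. DESeq2 called 0 members as well, against 1.97% of all genes. The median log2 change was -0.09 over the members and 0.04 over all genes tested. Without replicate 1 *in vivo*, 9 of 76 members and 2894 of 16779 genes had an unadjusted p under 0.05 by edgeR's test, and 0 members were called. The medians were then -0.18 and 0.09. A p that misses the threshold does not show that a member was equal in both conditions.

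The 3 members with the smallest p were all higher *in vitro*. *Mrps35*, a small subunit protein, had 10, 20 and 26 reads *in vivo* and 58, 96 and 37 *in vitro*, a log2 change of 1.66 with a standard error of 0.78. *Mrpl22*, which lines the exit tunnel for the new peptide, had 17, 31 and 51 reads *in vivo* and 58, 69 and 149 *in vitro*, a log2 change of 1.44 with a standard error of 0.69. *Mrpl48*, a large subunit protein, had 701, 413 and 522 reads *in vivo* and 1809, 643 and 729 *in vitro*, and the groups overlapped. Their adjusted p were 0.493, 0.501 and 0.504 by the quasi-likelihood test of edgeR (Benjamini-Hochberg). In 3 members (*Mrpl20*, *Mrpl22* and *Mrps35*) every *in vitro* library lay above every *in vivo* library, against 9.37% of all genes, and in 0 members every one lay below, against 6.81%.

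Levels of the members in MII oocytes were compared in TPM, the scale that allows for gene length. *Mrpl18* was highest *in vivo* at 568 ± 318 TPM, followed by *Mrpl40* at 159 ± 45.0, *Mrpl24* at 150 ± 49.4, *Mrps23* at 144 ± 10.5 and *Mrpl2* at 105 ± 13.7 TPM (SD, n = 3). *Mrpl18* lay at 228 to 859 TPM and above the other 4 members, whereas the neighbours among these 4 did not differ beyond their spread, except that *Mrps23* (132 to 151 TPM) lay above *Mrpl2* (90.2 to 118 TPM). *In vitro*, *Mrpl18* was at 387 ± 65.9 TPM and *Mrpl40* at 132 ± 41.9 TPM (SD, n = 3). The lowest were *Mrpl52* and *Mrps11*, both at 0 in each *in vivo* MII library, then *Mrps10*, *Mrpl33* and *Mrpl15*, which had means of 0.0697, 0.0763 and 0.368 TPM. In MII oocytes grown *in vitro*, *Mrps11* had 0, 7 and 9 reads and *Mrpl52* had 0, 1 and 0.

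Some members with high counts in small follicles had few or no reads in mature oocytes. *Mrpl43* had 0, 0 and 14 reads in *in vivo* and 0, 2 and 0 in *in vitro* MII libraries. *Mrpl52* had 1046, 31 and 19 reads in *in vivo* primary libraries and at most 1 read in any MII library. In the other direction, among members picked after their values were seen, *Mrpl45* had at most 38 reads in an LCM library and 415 to 1113 in MII libraries, and *Mrps14* had at most 22 reads in an LCM library and 523 to 1375 in MII libraries. *Mrpl24* had at most 47 reads in LCM libraries and 728 to 1656 in MII libraries.

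Single libraries also held most reads of other members in small follicles. *Mrpl47*, a counterpart of bacterial L29, had 182, 1148 and 0 reads in *in vivo* primordial, 0, 1 and 0 in *in vitro* primordial, 0, 942 and 1 in *in vivo* primary and 1487, 0 and 498 in *in vitro* primary libraries. In MII oocytes the same gene had 314, 651 and 445 reads *in vivo* and 453, 526 and 614 *in vitro*, so that no MII library lacked it. *Mrpl15*, a counterpart of bacterial L15, had 1433, 0 and 2 reads in the *in vitro* primordial libraries and 197, 19 and 469 in the *in vitro* primary libraries. *Mrpl22* had 3114, 54 and 0 reads in the *in vivo* primary libraries and 355, 72 and 179 in the *in vitro* primary libraries. In each of these 3 members a library with over 900 reads stood beside one with at most 3 reads in the same group.

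**Figure D5:**
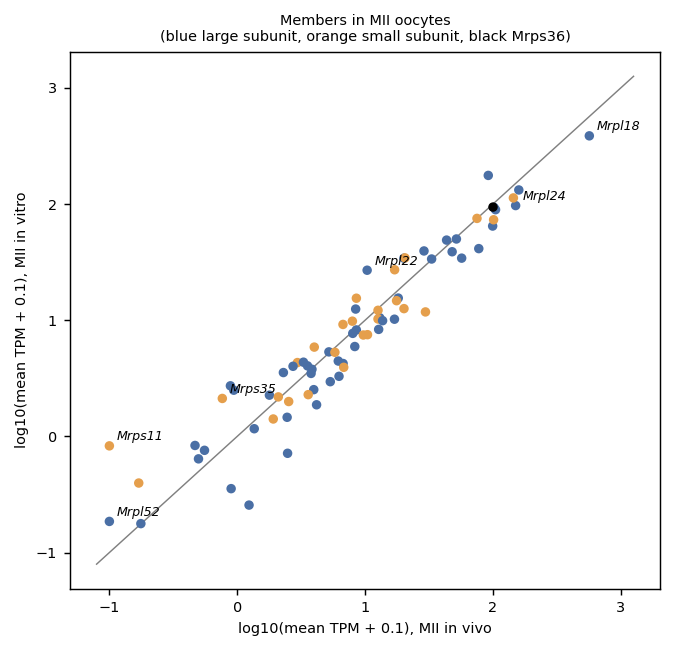
Mean TPM of each member in MII oocytes in vivo (horizontal) and in vitro (vertical), both as log10(TPM + 0.1), with 3 libraries in each mean, large subunit members in blue, small subunit members in orange and Mrps36 in black. The members lie along the line of equal levels from Mrps11 and Mrpl52 near 0 TPM to Mrpl18 at 568 and 387 TPM.

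The 3 paralogs of bacterial S18 differed in their pattern. *Mrps18a*, whose product sits in the large subunit, had 67, 49 and 108 reads in *in vivo* and 54, 61 and 59 in *in vitro* MII libraries. *Mrps18b*, whose product sits in the small subunit beside that of *Mrps18c*, had 13, 42 and 61 and then 61, 39 and 23. *Mrps18c* had 4, 0 and 16 and then 1, 13 and 1. In LCM libraries, *Mrps18b* reached 751 reads in 1 *in vitro* primary library and had 3 in another, whereas *Mrps18c* had 538 reads in 1 *in vitro* primary library and 0 in the others. None of the 3 was called by the quasi-likelihood test of edgeR (Benjamini-Hochberg) in any comparison.

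*Mrpl58*, a peptidyl-tRNA hydrolase that is built into the large subunit and frees stalled ribosomes, had 1080 reads in 1 *in vivo* primordial library and 0 in the others of that group. In MII libraries it had 10, 26 and 18 reads *in vivo* and 1, 30 and 42 *in vitro*. *Mrps36*, the gene that is not ribosomal, had 353, 406 and 497 reads in *in vivo* and 216, 428 and 610 in *in vitro* MII libraries. *Mrpl9* had 581, 956 and 883 reads in *in vivo* and 353, 2548 and 2033 in *in vitro* MII libraries. *Oaz3* overlaps *Mrpl9* from the opposite strand. Its reads were 133, 212 and 170 in the former and 59, 556 and 425 in the latter, and within the *in vitro* group the libraries with more *Mrpl9* reads also had more *Oaz3* reads. *Oaz3* had 0 reads in each of the 12 LCM libraries, where *Mrpl9* reached 733 reads.

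Other genes of mitochondrial translation were given by lists. Of the 5 mitoribosomal proteins with another symbol (*Dap3*, *Ptcd3*, *Chchd1*, *Aurkaip1* and *Gadd45gip1*), none was called in any of the 6 comparisons. *Dap3*, a GTP-binding protein of the small subunit, had 735, 1480 and 1599 reads in *in vivo* and 1155, 1374 and 1044 in *in vitro* MII libraries, but 2, 2036 and 4 in the *in vivo* primordial libraries. Among 27 genes of ribosome assembly and rRNA modification, 16 translation factors, 20 genes of aminoacyl-tRNA synthesis, 13 genes of mitochondrial genome maintenance and transcription, 86 oxidative phosphorylation subunit genes, 87 cytosolic ribosomal protein genes, the 13 mitochondrially encoded proteins and the 2 mitochondrial rRNAs, 0 were called in any comparison by the quasi-likelihood test of edgeR (Benjamini-Hochberg). At an unadjusted p under 0.05 there were 1 to 7 oxidative phosphorylation genes (1.27% to 8.86% of those tested) and 1 to 6 assembly genes (3.85% to 23.1%) per comparison, against 9.66% to 11.7% of all genes, and 0 to 4 in each of the other lists.

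By sums on the TMM scale, most of these lists overlapped between the growth conditions at each stage. In MII oocytes the aminoacyl-tRNA synthesis genes summed to 225 ± 35.3 CPM *in vivo* and 167 ± 7.57 CPM *in vitro* (SD, n = 3) without overlap. The genome maintenance and transcription genes summed to 49.8 ± 43.1 CPM *in vivo* and 250 ± 74.5 CPM *in vitro* in primary oocytes (SD, n = 3) without overlap. Of these 13 genes, 0, 6 and 5 were detected in the *in vivo* and 9, 7 and 7 in the *in vitro* primary libraries. Both sums were named because they did not overlap. They were not tested, and no other scaling of them is given here. The cytosolic ribosomal protein genes were detected more evenly than the members, with 67 to 83 of 87 in each LCM library. They summed to 36229 ± 8520 CPM in *in vivo* and 40059 ± 15779 CPM in *in vitro* primordial oocytes (SD, n = 3). On the TPM scale they summed to 2388 ± 776 in *in vivo* MII oocytes, where the members summed to 2443 ± 744 (SD, n = 3). The mitochondrially encoded proteins, which the mitochondrial ribosome makes, summed to 10.4 to 106 CPM in LCM libraries and 10026 to 85465 CPM in MII libraries, whereas the 2 mitochondrial rRNAs summed to 1036 to 3950 CPM and 356 to 3836 CPM.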

How the data were processed

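The raw counts per Ensembl gene and the TPM values were deposited by the authors. Per the submitters' processing notes and the study's methods, reads were trimmed with Trim Galore 0.4.1, mapped to mm10 with TopHat2 and counted with featureCounts, and the authors' TPM values cover 28252 of the 53715 genes. Whether counting used the strand is not given in the sources used here. The members and gene lists were chosen with earlier results of these data known.

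Counts were tested with edgeR 4.0.16 (quasi-likelihood, TMM) in R 4.3.3, separately for the 12 LCM libraries (4 groups) and the 6 MII libraries. Genes with a total of at least 10 counts entered. Called means a Benjamini-Hochberg adjusted p under 0.05 over all genes tested and a change of at least 2-fold. Detection means over 3 counts, and a fold against a group at 0 was set against 3 counts per library. These floors cover counting error only. In simulated counts every changed gene had a log2 change of 3, and all genes shared 1 spread like that of the LCM or the MII libraries. At the LCM spread the test gave the right sign for most changed genes but called none of them, and it called a minority at the MII spread. The simulation did not let the spread differ between genes as the data do. An absent call thus says little. Alternatives were DESeq2 1.42.0, limma 3.58.1 on log2(TPM + 1) or log2(TPM + 0.1), other scalings, filters and samples, a replicate block, and leaving out each library. Sums (CPM and TPM) without single members were added after seeing the data.

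Named members were those called by edgeR or DESeq2, the 3 of smallest p in each comparison, the 5 highest and the 5 lowest by TPM in *in vivo* MII oocytes, members detected in all or in no LCM libraries, *Mrps11*, the 3 *Mrps18* paralogs, *Mrps36*, *Mrpl12* and *Mrpl58*. Members outside this rule (*Mrps25*, *Mrpl9*, *Mrpl20*, *Mrpl39*, *Mrpl10*, *Mrps6*, *Mrps14*, *Mrpl45*, *Mrps2*) were named after their values were seen. Coordinates come from GENCODE M21, which held all 78 members.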

Additional observations from a re-analysis of the deposited data

Results flagged for a closer look

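*Mrpl43* passed the interaction test in edgeR, with a fitted log2 difference of 24.32 between the culture changes (primary minus primordial, n = 3 libraries per group). This size is no measure of fold, because the *in vitro* primordial group was at 0 reads. The call was lost with no filter, with filterByExpr, with limma and with the replicate block. It was also lost when any library other than replicate 1 of *in vivo* primary oocytes was left out. It had 3418, 1 and 8996 reads in *in vivo* and 0 in each *in vitro* primordial library, against 1, 0 and 9 in *in vivo* and 3130, 4110 and 945 in *in vitro* primary libraries.

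The small subunit sum was lower *in vitro* in primordial oocytes (ratio 0.397) and higher *in vitro* in primary oocytes (ratio 2.13), with no overlap between the groups at either stage. This difference between the stages was not tested. With DESeq2's size factors the primary groups overlapped (ratio 1.44), and without *Mrps25* the groups overlapped at both stages (ratios 0.391 and 1.07).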

How the results depend on the processing

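With DESeq2 in place of edgeR, 5 members were called between the primordial groups, 1 between the primary groups, 4 in the interaction, 1 between the stages *in vivo* and 6 between the stages *in vitro*. Over all genes DESeq2 called 812, 244, 558, 561 and 454 in these comparisons and 337 in MII oocytes, against 5, 0, 16, 8, 0 and 60 by edgeR. In the interaction, 0 members were called with no filter, with filterByExpr, with limma on log2(TPM + 1) or log2(TPM + 0.1) and with the replicate block, and 0 to 1 when 1 library was left out. With no filter, 1 gene was called in the interaction and 263 in MII oocytes. With filterByExpr or limma 0 genes were called in any LCM comparison. With only the groups compared, 9, 5 and 3 genes were called between the primordial groups, the primary groups and the stages *in vivo*. Leaving out 1 MII library gave 11 to 378 genes. The summed TPM ratio without *Mrpl43* was 0.825 in primordial and 1.05 in primary oocytes, against 0.394 and 1.58 with it. The summed CPM ratio was 0.935 without *Mrpl43* in primordial oocytes, 0.930 with DESeq2's size factors in primary oocytes and 0.880 to 1.05 when 1 MII library was left out, the highest without replicate 2 *in vivo*. The log2 change of *Mrpl18* between the primordial groups was 0.0 and its interaction -0.64 without replicate 1 of the *in vivo* primordial libraries, which held all of its primordial reads. When 1 library at a time was left out, these values ran from -11.30 to 0.0 and from -0.64 to 11.73. That of *Mrps18c* between the primary groups was 0.0 without replicate 1 *in vitro*, which held all of its primary reads.

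Libraries with the same replicate number correlated at -0.05 to 0.09 in their deviations from the group means, so the numbers do not pair them. With the replicate block, 0 members were called in each comparison, and over all genes 1 was called between the primordial groups, 0 in the other LCM comparisons and 85 in MII oocytes. Of all values set against an alternative, 528 kept their direction and side of the threshold or moved by less than the spread, 21 newly passed, 32 no longer passed, 9 moved and 5 reversed. The 528 are mostly values that the main test did not call and that stayed uncalled, so this count does not measure how firm a call was. Only the interaction of *Mrpl43* could stop passing, because it was the only call of a member by the main test, and all 32 losses belong to it.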
